A study of Homo sapiens with 48 samples.

Results

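The MYC and MAX network is a family of basic helix-loop-helix leucine zipper transcription factors, and its RNA was followed here in 22Rv1, an established human line of castration-resistant prostate cancer, and in lines made from it. The 10 genes examined were chosen by symbol: MYC, MYCL, MYCN, MAX, MXD1, MXD3, MXD4, MNT, MGA and MLX. They are 10 of 61815 genes in the count table and 10 of the 20009 genes that had enough reads to be tested. All 10 were tested, although MYCN was kept by the filter on low counts through the Rv1-WT libraries alone, which makes it a gene that had to differ between lines.

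RNA-Seq was done in 48 libraries, which form 16 groups of 3 biological replicates. Rv1-WT is parental 22Rv1, and Rv1-Luc was derived from it with a lentivirus that carries firefly luciferase. The other lines descend from 22Rv1 cells in which the genes of both Mediator kinases, CDK8 and CDK19, had been knocked out by CRISPR/Cas9. dKO-8 carries wild-type CDK8 put back by lentivirus and dKO-8M its D173A mutant, which has no kinase activity. dKO-19 and dKO-19M carry wild-type CDK19 and the D173A mutant of CDK19. These CDK19 lines were made from the knockout cells directly. The CDK8 lines were made from knockout cells that already held a lentiviral vector without an insert. The medium of Rv1-WT and Rv1-Luc held either FBS, which contains androgen, or charcoal-stripped FBS (CSS), which is depleted of it, and the dKO lines were kept in FBS alone. Each line and medium was given 500 nM SNX631, an inhibitor of CDK8 and CDK19, or 0.1% DMSO as vehicle for 72 h. Each group is 1 line, with its own history of knockout and transduction, so a difference between lines cannot be told apart from that history.

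The network works by dimer choice. MYC, MYCL and MYCN bind DNA only as partners of MAX and activate genes of growth and ribosome production, with the E-box CACGTG as their preferred site. MXD1, MXD3, MXD4 and MNT compete for MAX, bring the SIN3 corepressor to the same sites and oppose MYC. MGA is a large MAX partner that belongs to a variant Polycomb complex, and MLX pairs with the glucose sensors MondoA (MLXIP) and ChREBP (MLXIPL). MYC is a driver of advanced prostate cancer.

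MXD4, MNT and MLX hold the E-box in the RefSeq promoter window around their own start, and those stretches are shown because the binding site of the network thereby lies next to members whose RNA is followed here. RefSeq windows (GRCh38.p14) run from 250 bases before to 50 bases after a gene's start. Windows were found for 9 members, 12 windows in all. None was available for MYC, so its promoter was not searched. The search was for CACGTG, which reads the same on both strands. It was present in 3 of the 12 member windows and in 7.26% of all 35116 windows of the same length. Each line gives 65 bases, 5′ to 3′ on the strand of the gene, with the E-box in capitals. MXD4 is at chr4:2262295-2262359 on the minus strand, MNT at chr17:2401218-2401282 on the minus strand and MLX at chr17:42567003-42567067 on the plus strand. All 3 stretches lie before every start that GENCODE 29 annotates for the gene.
MXD4: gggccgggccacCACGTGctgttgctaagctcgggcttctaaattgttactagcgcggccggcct
MNT: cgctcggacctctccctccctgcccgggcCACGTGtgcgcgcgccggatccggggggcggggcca
MLX: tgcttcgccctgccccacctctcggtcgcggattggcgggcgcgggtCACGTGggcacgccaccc
The E-box ended 233 bases before the RefSeq start of MXD4, 188 bases before that of MNT and 45 bases before that of MLX. A match of letters is a description and not evidence that a factor binds there, and no binding was measured.

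The libraries held 13.2 to 31.5 M counts (median 21.4 M). CDK19 RNA under vehicle in FBS was 510 ± 7.84 CPM (counts scaled to a common library size, SD, n = 3) in dKO-19 and 332 ± 29.6 CPM in dKO-19M, against 149 ± 1.07 CPM in Rv1-WT, and CDK8 RNA was 68.7 ± 2.43 CPM in dKO-8 and 123 ± 3.95 CPM in dKO-8M, against 26.8 ± 0.472 CPM in Rv1-WT. CDK8 was at 27.7 ± 1.42 CPM in dKO-19. RNA and protein differed for CDK8: by Western blot, the study found less CDK8 protein in dKO-8 than in parental cells. For CDK19 it found far more protein in dKO-19 and dKO-19M than in the parent. Counts over a whole gene include any RNA of a disrupted copy, so they do not check the knockout. Of the luminal prostate markers, HOXB13 lay between 173.4 and 317 CPM over the libraries, FOXA1 between 508 and 1167 CPM, and FOLH1 between 4.90 and 548 CPM. KRT8 lay between 418 and 3410 CPM and KRT18 between 385 and 837 CPM, and the 3 basal markers summed to at most 0.457 CPM. Replicate 1 of dKO-19M under vehicle stood apart from its replicates: counts compared by chi-square over genes gave 15.97 and 16.5 per degree of freedom, while the other 46 pairs of replicates gave 1.27 to 9.15, the highest between replicates 1 and 2 of Rv1-Luc under vehicle in FBS. Member values that rest on replicate 1 of dKO-19M are given without it as well, one by one where leaving it out moved them by over 1.5 times, changed their sign or changed whether they passed. These are bulk cultures, in which fewer cells of a kind and less RNA per cell cannot be told apart.

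MYC was by far the most abundant member. Per kilobase of exon (exon lengths from GENCODE 29), the mean level of a group ran from 64.9 to 121 CPM per kb for MYC. MLX was next at 16.3 to 22.3, followed by MAX at 9.77 to 13.9 and MXD3 at 7.15 to 11.52 CPM per kb. MGA, MXD4, MXD1 and MNT lay close together on this scale, at 4.74 to 7.01 for MGA, 4.02 to 6.62 for MXD4, 3.85 to 5.75 for MXD1 and 3.19 to 4.25 CPM per kb for MNT. The other MYC genes were scarce: MYCL reached 0.270 to 1.70 CPM per kb and MYCN at most 0.886.

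**Figure D1:**
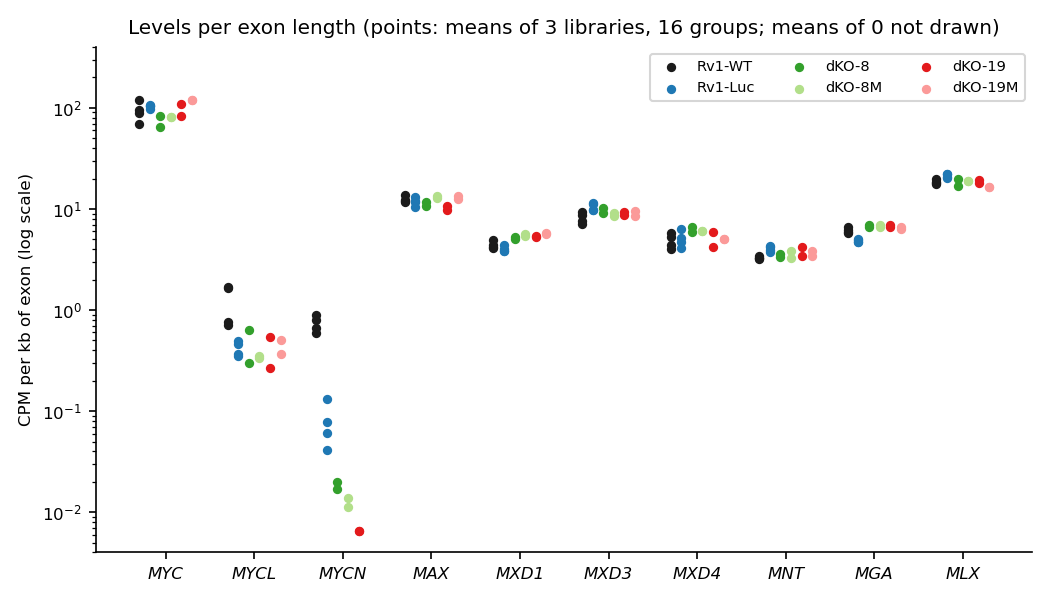
Level of each network gene per kilobase of exon (log scale), with 1 point per group (mean of 3 libraries) and a color per line. MYC stands above the other members in every group (64.9 to 121 CPM per kb), and MYCN is spread widely between lines, from at most 0.886 CPM per kb in Rv1-WT down to 0 in dKO-19M, where it is not drawn.

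The exons of some members overlap those of neighboring genes, and part of the deposited counts are fractions, as when a read is divided between several features or sites. The counting options are not given in the sources used here. MXD1 had a fractional count in 56.2% of libraries, MXD4 in 50% and MXD3 in 45.8%, against 2.08% for MYC and MAX and none for MYCL and MYCN. MXD3 (chr5:177301461-177312757, minus strand) shares 17.97% of its exon bases with RAB24 on the same strand and 22.5% with PRELID1 on the opposite strand, so MXD3 values are uncertain. MXD1 (chr2:69897688-69942945, plus strand) shares 3.73% with SNRNP27 and MXD4 (chr4:2247432-2262294, minus strand) shares 1.13% with MIR4800, both on the same strand. MLX (chr17:42567068-42573239) shares 18.1% with PSMC3IP and MNT (chr17:2384060-2401118) 12.2% with AC006435.1, both on opposite strands.

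Changes were tested for all genes with edgeR. A gene is said here to have passed the test at an adjusted p (false discovery rate) under 0.01, and to have been called when its fold change was also over 1.5; both limits are those of the study. Fold changes are given as log2 values. Over the 8 comparisons of SNX631 with vehicle, 18 of 80 tests of a member passed and 3 were called. The share of all genes that passed ran from 0.150% in dKO-8M to 17.6% in Rv1-WT in CSS. In the comparisons with a called member, 1.71% to 4.23% of all genes were called.

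**Figure D2:**
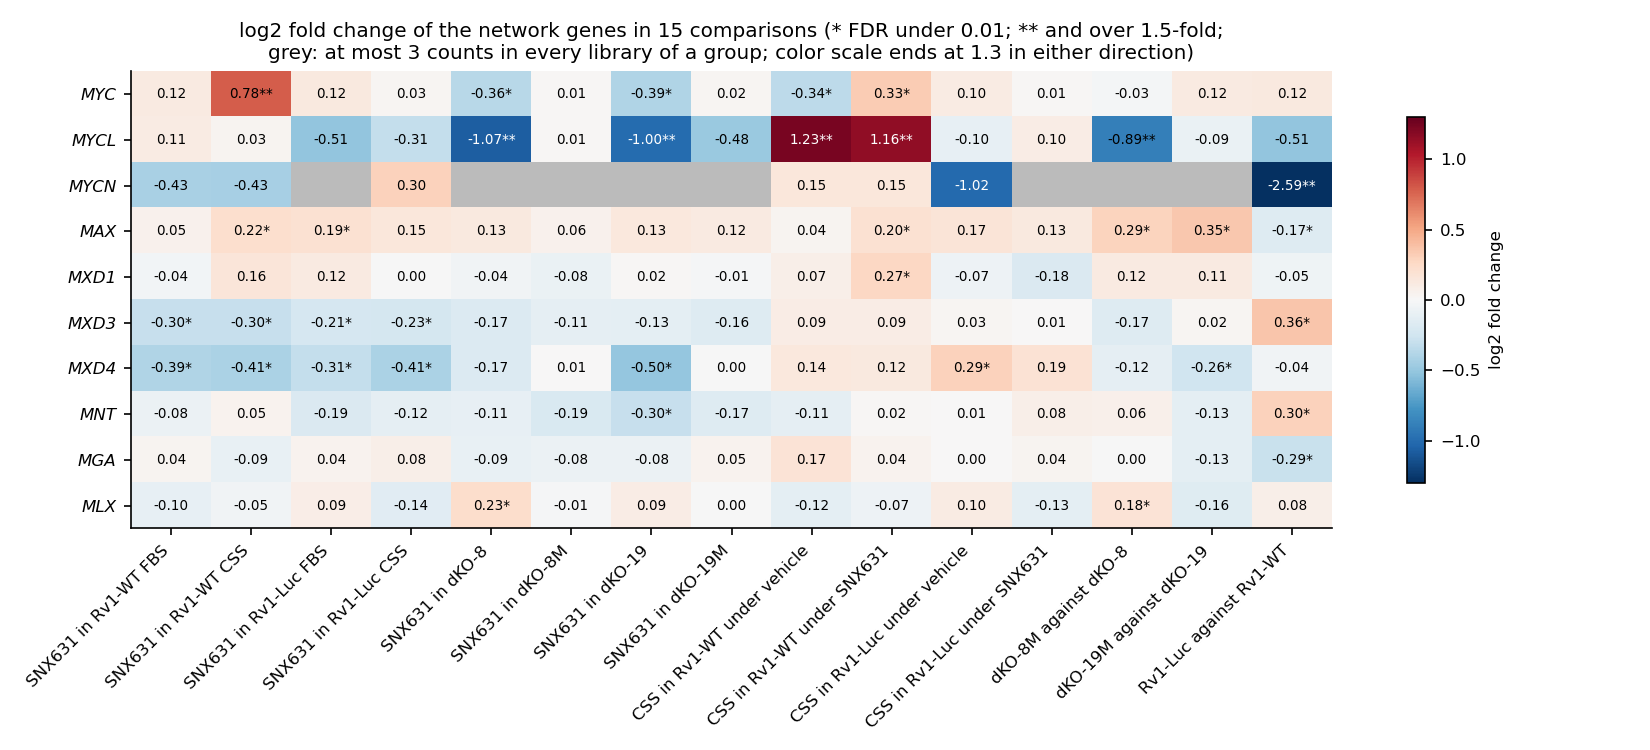
log2 fold change of the 10 network genes (rows) in 15 comparisons (columns: 8 of SNX631 with vehicle, 4 of CSS with FBS, and 3 between lines). A single asterisk marks an adjusted p under 0.01 and a double one also a fold change over 1.5; grey cells had at most 3 counts in every library of a group. MYCL holds 5 of the called values and MYC 1. The double asterisk of MYCN marks a difference that the filter on low counts had fixed.

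MYC, the member that is tied most closely to growth, responded to SNX631 in opposite directions in settings that differed in line and medium. The increase came in CSS and the decreases in FBS, the only medium of the dKO lines. A comparison of the increase with the decreases can therefore not tell line and medium apart. Differences between lines in the same medium, and between media in Rv1-WT, are given below. In Rv1-WT in CSS its levels were 201, 205 and 223 CPM under vehicle and 370.3, 353 and 360.4 CPM under SNX631. All treated libraries lay above all controls, and MYC rose by 0.78 ± 0.05 (log2, SE, 1.72-fold, adjusted p = 8.71e-20). In dKO-8 the levels were 248.7, 249.7 and 249.8 CPM under vehicle and 186, 198 and 201 CPM under SNX631. Here all treated libraries lay below the controls, and MYC fell by 0.36 on the log2 scale (SE 0.05, adjusted p = 8.84e-08). In dKO-19 the levels were 349, 323 and 312 CPM under vehicle and 255, 249 and 249.6 CPM under SNX631, a fall of the same order: MYC decreased by 0.39 on the log2 scale (SE 0.05, adjusted p = 3.68e-09).

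Where the kinase was dead, MYC did not pass. In dKO-8M the 3 vehicle libraries had 236, 252 and 245 CPM and the treated ones 253, 246 and 240.5 CPM, which overlap, and the log2 difference was 0.01 (95% interval -0.08 to 0.11). In dKO-19M the levels were 369, 344 and 355 CPM under vehicle and 392, 341 and 354 CPM under SNX631, and the log2 difference was 0.02 (95% interval -0.07 to 0.12), or 0.05 without vehicle replicate 1. The response of dKO-8 differed from that of dKO-8M by -0.37 ± 0.07 (adjusted p = 0.000143), and that of dKO-19 from dKO-19M by -0.41 ± 0.07 (adjusted p = 8.25e-06). Without replicate 1 of dKO-19M under vehicle, the second difference was -0.44 (adjusted p = 7.46e-06). The responses of dKO-19 and dKO-8 did not pass the test for a difference of their own (-0.03).

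In the lines with both kinases intact, MYC did not pass in FBS, although the libraries of Rv1-WT did not overlap. Rv1-WT in FBS had 273, 251 and 272 CPM under vehicle and 302, 283 and 278 CPM under SNX631 (0.12 ± 0.05, adjusted p = 0.107), and Rv1-Luc in FBS had 309, 278.5 and 280.4 CPM under vehicle and 331, 323 and 292 CPM under SNX631 (0.12 ± 0.05, adjusted p = 0.0566). In Rv1-Luc in CSS the difference was 0.03 (95% interval -0.07 to 0.13), with the groups overlapping. The rise in Rv1-WT in CSS was larger than that in FBS by 0.67 ± 0.07 (adjusted p = 6.77e-10), and the response of Rv1-Luc in CSS differed from that of Rv1-WT by -0.75 ± 0.07 (adjusted p = 3.36e-12). The responses of dKO-8 and dKO-19 differed from that of Rv1-WT in FBS by -0.47 ± 0.07 (adjusted p = 1.07e-06) and -0.50 ± 0.07 (adjusted p = 1.95e-07). The last 3 differences were added after the values had been seen. The last 2 share the libraries of Rv1-WT in FBS.

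**Figure D3:**
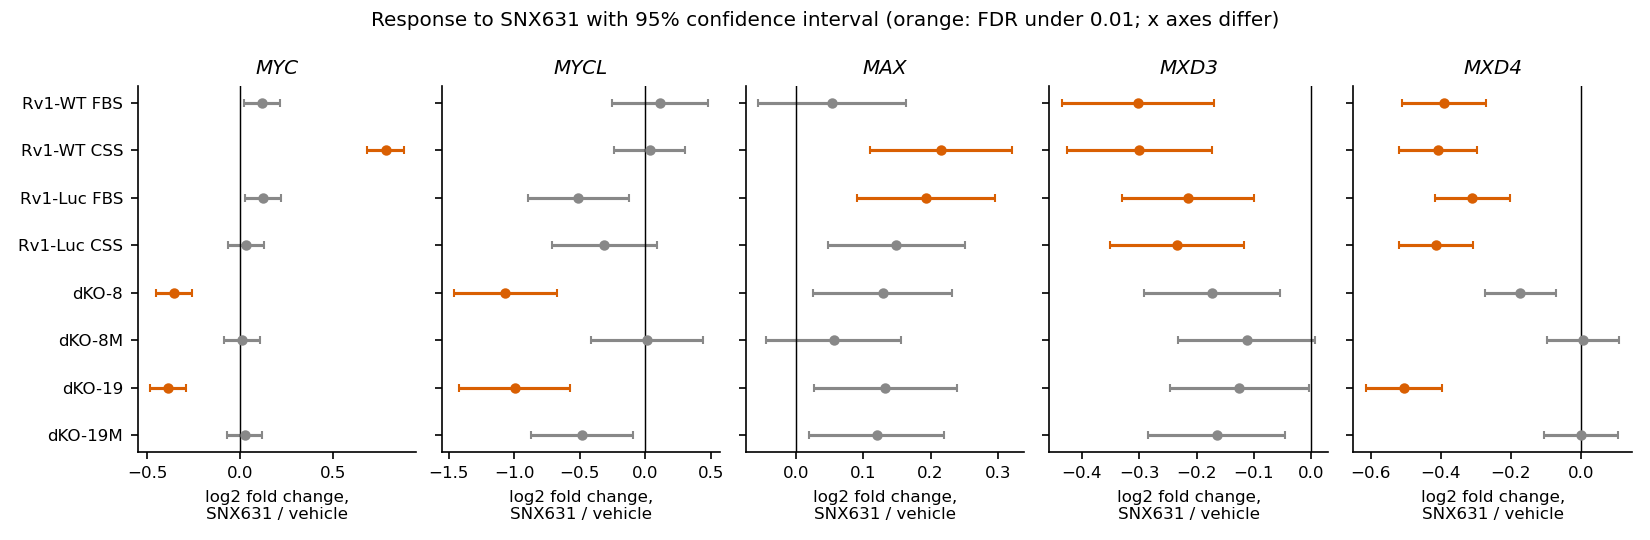
log2 fold change of SNX631 over vehicle (x axis, different range per gene) with its 95% confidence interval for MYC, MYCL, MAX, MXD3 and MXD4 in 8 settings (rows); orange marks an adjusted p under 0.01. MYC lies above 0 in Rv1-WT CSS (0.78) and below 0 in dKO-8 (-0.36) and dKO-19 (-0.39), while MXD3 and MXD4 lie below 0 in all 4 settings of Rv1-WT and Rv1-Luc.

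The rank of MYC over the 16 groups shows how far these shifts go. The lowest mean was 195 ± 8.14 CPM in dKO-8 under SNX631, next came 209.8 ± 11.9 CPM in Rv1-WT in CSS under vehicle, and the highest were 361 ± 8.93 CPM in Rv1-WT in CSS under SNX631 and 362 ± 26.3 CPM in dKO-19M under SNX631. Of the 15 pairs of neighbors in this order, 12 had overlapping libraries. The 3 gaps lay above dKO-8 under SNX631, above Rv1-WT in CSS under vehicle and above Rv1-WT in FBS under vehicle. SNX631 thus took mean MYC in Rv1-WT in CSS from near the bottom of this order to near its top, where the libraries of neighbors overlapped.

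MYCL, a paralog of MYC that was found amplified in lung cancer, fell under SNX631 in both dKO lines with an active kinase. In dKO-8 its levels were 3.46, 3.14 and 3.10 CPM under vehicle (72, 60 and 79 counts) and 1.80, 1.49 and 1.27 CPM under SNX631 (46, 36 and 27 counts). The groups did not overlap, and MYCL fell by 1.07 on the log2 scale (SE 0.19, adjusted p = 4.24e-05), to 0.477 of the vehicle level. In dKO-19 it was at 2.36, 2.62 and 3.19 CPM under vehicle and at 1.82, 1.20 and 1.08 CPM under SNX631. MYCL dropped by 1.00 on the log2 scale in this line (SE 0.21, adjusted p = 0.000242), again with no overlap.

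In the kinase-dead lines and in the parental ones, MYCL did not pass under SNX631. The log2 difference was 0.01 (95% interval -0.41 to 0.44) in dKO-8M, -0.48 (-0.88 to -0.09, or -0.41 without vehicle replicate 1) in dKO-19M, 0.11 (FBS) and 0.03 (CSS) in Rv1-WT, and -0.51 (FBS) and -0.31 (CSS) in Rv1-Luc. The difference between the responses of dKO-8 and dKO-8M was -1.08 (adjusted p = 0.0127) and that between dKO-19 and dKO-19M -0.51 (adjusted p = 0.31, or -0.59 without vehicle replicate 1 of dKO-19M), and neither passed. Against Rv1-WT in FBS, the response of MYCL differed by -1.18 ± 0.27 in dKO-8 (adjusted p = 0.00197) and by -1.11 ± 0.28 in dKO-19 (adjusted p = 0.00629). The first was lost without Rv1-WT vehicle replicate 2 or dKO-8 SNX631 replicate 3 (adjusted p up to 0.0117). The second passed in 5 of 12 fits that left out a library, and was lost without replicate 1 or 2 of Rv1-WT under vehicle, 1 or 3 of Rv1-WT under SNX631, 3 of dKO-19 under vehicle, or 2 or 3 of dKO-19 under SNX631 (adjusted p up to 0.0383). Over the 16 groups, mean MYCL ran from 1.37 CPM in dKO-19 under SNX631 to 8.59 ± 0.320 CPM in Rv1-WT in CSS under SNX631, and the single gap between neighbors lay below the groups of Rv1-WT in CSS. MYCL libraries hold 21 to 176 counts, which limits the precision of these values.

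MXD4 and MXD3, which compete with MYC for MAX, had lower RNA under SNX631 in Rv1-WT and Rv1-Luc in both media. MXD4 in Rv1-WT in FBS was at 38.7, 36.0 and 36.8 CPM under vehicle and at 27.9, 28.0 and 29.1 CPM under SNX631, without overlap, and decreased by 0.39 on the log2 scale (SE 0.06, adjusted p = 8.92e-07). With SNX631 given in CSS, MXD4 fell by 0.41 in Rv1-WT (adjusted p = 4.42e-08) and by 0.41 in Rv1-Luc (adjusted p = 6.29e-09). For Rv1-Luc cells kept in FBS, MXD4 fell by 0.31 (adjusted p = 8.01e-06). None of these reached 1.5-fold. All 4 held in each of the 6 fits that left out a library.

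The dKO lines separated for MXD4. In dKO-19 its levels were 43.1, 39.5 and 43.8 CPM under vehicle and 29.2, 28.9 and 31.2 CPM under SNX631, and MXD4 fell by 0.50 on the log2 scale (SE 0.05, adjusted p = 4.58e-11), its largest response. In dKO-8 the levels were 46.1, 46.4 and 47.6 CPM under vehicle and 41.4, 41.1 and 42.0 CPM under SNX631, a difference of -0.17 (adjusted p = 0.0148) that did not pass although the libraries did not overlap. In dKO-19M the 2 groups covered nearly the same range, 34.3 to 36.0 CPM and 34.2 to 35.8 CPM, and the log2 difference was -0.00051, or 0.0038 without vehicle replicate 1. The responses of dKO-19 and dKO-19M differed by -0.50 ± 0.08 (adjusted p = 1.33e-06), or -0.51 without replicate 1 of dKO-19M under vehicle, and those of dKO-19 and dKO-8 by -0.33 ± 0.07 (adjusted p = 0.00251). The latter was lost without replicate 3 of dKO-19 under vehicle or replicate 2 under SNX631, and with library size as the only scaling (adjusted p up to 0.0141). In dKO-8M the log2 difference was 0.01 (95% interval -0.10 to 0.11). Over the 16 groups, mean MXD4 ran from 28.3 CPM in Rv1-WT in FBS under SNX631 to 46.7 CPM in dKO-8 under vehicle, with 1 gap among 15 pairs of neighbors.

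MXD3 fell by 0.30 in Rv1-WT in both FBS (adjusted p = 0.000592, or 0.0115 without SNX631 replicate 3) and CSS (adjusted p = 0.000187), by 0.21 in Rv1-Luc in FBS (adjusted p = 0.00411) and by 0.23 in Rv1-Luc in CSS (adjusted p = 0.00167), all on the log2 scale. In Rv1-WT in FBS this was a step from 46.2, 43.0 and 47.0 CPM to 39.2, 36.3 and 35.1 CPM. The value in Rv1-Luc in FBS was lost without replicate 2 or 3 of either treatment (adjusted p up to 0.0341), and that in CSS without vehicle replicate 2 or SNX631 replicate 1 or 3 (adjusted p up to 0.0283). In the dKO lines MXD3 did not pass, at -0.17 in dKO-8, -0.11 in dKO-8M, -0.13 in dKO-19 and, for dKO-19M, -0.17. The value of dKO-19M rests on vehicle replicate 1 and was -0.06 without it. No difference in response between lines with an active and a dead kinase passed for MXD3, and for CDK19 it was 0.04, or -0.07 without this library. Since MXD3 shares exon bases with RAB24 and PRELID1, reads of these genes may be among its counts.

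MAX, the partner that every MYC protein needs, rose slightly with SNX631 in 2 settings: by 0.22 ± 0.05 in Rv1-WT in CSS (adjusted p = 0.00115) and by 0.19 ± 0.05 in Rv1-Luc in FBS (adjusted p = 0.00339). In Rv1-WT in CSS it went from 53.7, 51.9 and 53.3 CPM to 63.3, 59.9 and 61.3 CPM, with no overlap. The value in Rv1-Luc in FBS was lost without vehicle replicate 3 or SNX631 replicate 1 or 3, with no filter on low counts, and in a fit of only the libraries compared (adjusted p up to 0.0296). In the other 6 settings MAX had log2 differences of 0.05 to 0.15 and did not pass.

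The remaining members passed in 1 line each or in none. MNT, the ubiquitous antagonist of MYC, fell by 0.30 in dKO-19 (SE 0.06, adjusted p = 0.000343), from 38.7, 36.0 and 35.9 CPM to 30.1, 29.04 and 31.01 CPM. MNT was at -0.19 in dKO-8M, -0.17 in dKO-19M, -0.19 in Rv1-Luc in FBS and -0.11 in dKO-8, none of which passed, and the responses of dKO-19 and dKO-19M did not pass the test for a difference (-0.13, adjusted p = 0.46). MLX rose by 0.23 ± 0.05 in dKO-8 (adjusted p = 0.000771), from 74.2, 70.3 and 69.4 CPM to 82.3, 85.9 and 82.9 CPM, and this response differed from that in Rv1-WT in FBS by 0.33 ± 0.07 (adjusted p = 0.00144). Without dKO-8 vehicle replicate 3 the rise of MLX had an adjusted p of 0.0109. In the other 7 settings MLX was at -0.14 to 0.09 and did not pass. MXD1 and MGA passed in none of the 8 settings, with log2 differences of -0.08 to 0.16 for MXD1 and -0.09 to 0.08 for MGA. The value of MGA in dKO-19M was 0.05, or -0.11 without vehicle replicate 1. MYCN did not pass in Rv1-WT, with -0.43 in either medium, or in Rv1-Luc, with 2 to 9 counts per library. Its value in Rv1-Luc in CSS was 0.30, and none is given in FBS, where the SNX631 libraries held at most 3 counts.

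Read against all genes, the count of members that passed was 2 of 10 in Rv1-WT in FBS (background 8.79% of genes), 4 in Rv1-WT in CSS (17.6%), 3 in Rv1-Luc in FBS (13.2%), 2 in Rv1-Luc in CSS (15.8%), 3 in dKO-8 (7.75%) and 4 in dKO-19 (13.2%). No member passed in dKO-8M (background 0.150%) or dKO-19M (0.955%, or 0.288% without vehicle replicate 1). At an unadjusted p under 0.05 edgeR gave 1 member for dKO-8M and 4 for dKO-19M, while DESeq2 passed 0 in either line. Of the called members, MYC in Rv1-WT in CSS stands beside 4.23% of all genes, MYCL in dKO-8 beside 1.71% and MYCL in dKO-19 beside 3.41%. The median log2 change of the 10 members was lowest in dKO-8, at -0.11, where that of all genes was 0. Among differences of response, 1 member passed for Rv1-WT CSS minus FBS (MYC; background 1.38% passed and 0.295% called), 1 for dKO-8 minus dKO-8M (3.31%), 2 for dKO-19 minus dKO-19M (5.67%) and 1 for dKO-19 minus dKO-8 (2.43%). None passed for Rv1-Luc CSS minus FBS (0.170%) or Rv1-Luc minus Rv1-WT in FBS (0.650%), where 2 members each had an unadjusted p under 0.05 and DESeq2 passed 0. For the 3 differences added later, 1 member passed and was called for Rv1-Luc minus Rv1-WT in CSS (4.15% passed and 1.12% called), 3 passed and 1 was called for dKO-8 minus Rv1-WT (4.35% and 1.42%), and 2 passed and 1 was called for dKO-19 minus Rv1-WT (4.14% and 1.43%).

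**Figure D4:**
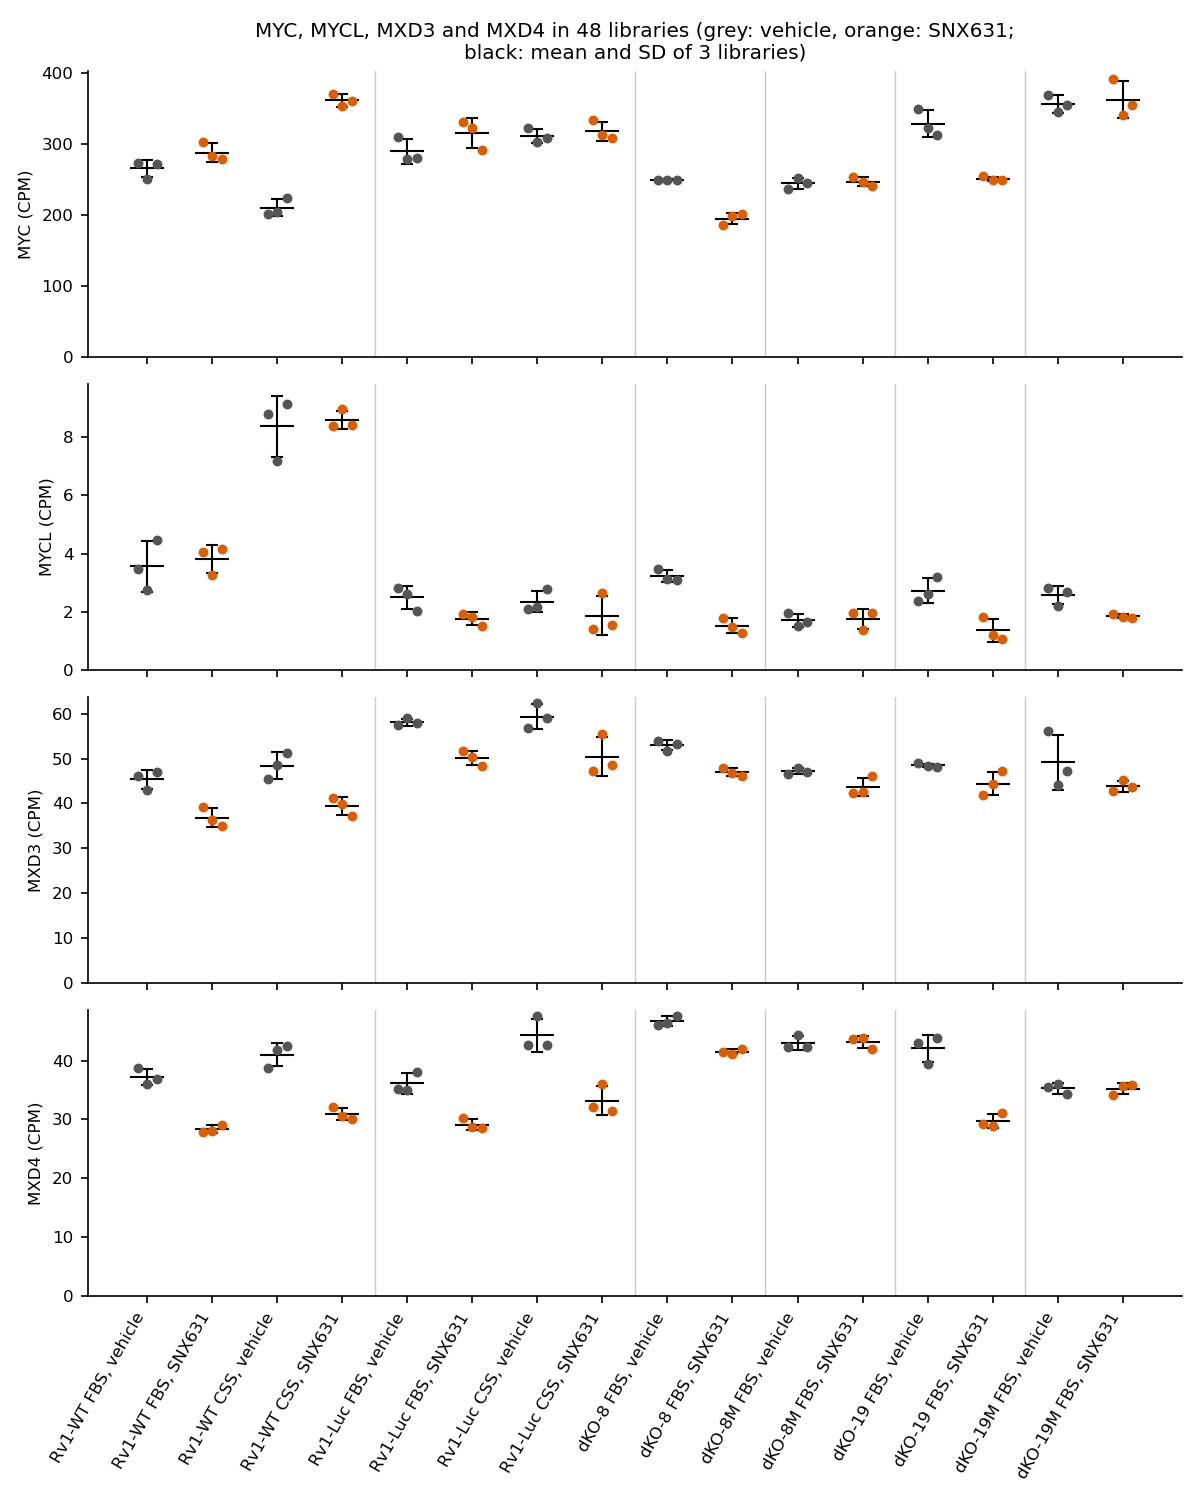
CPM of MYC, MYCL, MXD3 and MXD4 (4 panels, axes from 0) in each of 48 libraries, by group; grey points are vehicle, orange points SNX631, and black bars the mean and SD of 3 libraries. MYCL stands at 7.19 to 9.12 CPM in Rv1-WT in CSS and at 4.48 CPM or less in every other library.

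Androgen depletion moved MYC and MYCL in opposite directions in Rv1-WT. Under vehicle, MYC went from 273, 251 and 272 CPM in FBS to 201, 205 and 223 CPM in CSS, a fall of 0.34 on the log2 scale (SE 0.05, adjusted p = 4.93e-08). MYCL went from 3.47, 2.74 and 4.48 CPM to 8.78, 7.19 and 9.12 CPM, a rise of 1.23 ± 0.16 or 2.35-fold (adjusted p = 2.56e-09). Neither pair of groups overlapped. Under SNX631, CSS raised MYCL as before, from 4.04, 3.25 and 4.15 CPM to 8.39, 8.96 and 8.42 CPM (1.16 ± 0.16, adjusted p = 1.03e-08), while MYC rose by 0.33 ± 0.05 (adjusted p = 9.73e-08). The comparison of CSS with FBS under vehicle and that of SNX631 with vehicle in CSS share the libraries of Rv1-WT in CSS under vehicle, in which MYC was low.

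Rv1-Luc did not repeat this. MYC was at 309, 278.5 and 280.4 CPM in FBS and at 323, 303 and 308 CPM in CSS under vehicle, and MYCL at 2.83, 2.60 and 2.04 CPM in FBS and at 2.11, 2.17 and 2.77 CPM in CSS; both pairs overlapped and neither gene passed. The response to CSS differed between Rv1-Luc and Rv1-WT by 0.44 ± 0.07 for MYC (adjusted p = 4.48e-07) and by -1.34 ± 0.25 for MYCL (adjusted p = 1.39e-05). MXD4 was the member that passed in Rv1-Luc under vehicle, where it rose by 0.29 ± 0.05 (adjusted p = 2.48e-05) from 35.1, 35.0 and 38.1 CPM to 42.6, 47.5 and 42.7 CPM. Its value in Rv1-WT was 0.14 (adjusted p = 0.0332), and the difference between these responses did not pass (0.15, adjusted p = 0.117).

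MAX and MXD1 also passed in Rv1-WT under SNX631: MAX rose by 0.20 ± 0.05 in CSS over FBS (adjusted p = 0.00175) and MXD1 by 0.27 ± 0.06 (adjusted p = 0.000276). The value of MAX was lost without replicate 1 or 3 in FBS or replicate 1 in CSS (adjusted p up to 0.0468). No other value of a member passed for CSS against FBS. MXD3 was at 0.01 to 0.09, MNT at -0.11 to 0.08, MGA at 0.00 to 0.17 and MLX at -0.13 to 0.10. MYCN was at 0.15 in Rv1-WT under either treatment and at -1.02 in Rv1-Luc under vehicle. MAX and MXD1 were at 0.04 and 0.07 in Rv1-WT under vehicle and at 0.17 and -0.07 in Rv1-Luc under vehicle, and MXD4 was at 0.12 in Rv1-WT under SNX631. Under SNX631 in Rv1-Luc, MYC was at 0.01, MYCL at 0.10, MXD4 at 0.19, MAX at 0.13 and MXD1 at -0.18. Without vehicle replicate 1 of Rv1-Luc in FBS, the response of MLX to CSS under vehicle differed between Rv1-Luc and Rv1-WT by 0.29 (adjusted p = 0.00119), against 0.23 with it, which did not pass. In all, 2 of 10 members passed and 1 was called in Rv1-WT under vehicle (background 36.2% and 10.9% of genes), 4 passed and 1 was called under SNX631 (31.3% and 7.83%), and 1 passed in Rv1-Luc under vehicle (7.94%). No member passed in Rv1-Luc under SNX631 by edgeR (background 7.06%), where 4 had an unadjusted p under 0.05 and DESeq2 passed 1. For the difference in response to CSS between Rv1-Luc and Rv1-WT, 2 members passed and 1 was called (background 25.0% and 8.65%).

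Between lines under vehicle in FBS, a dead kinase in place of an active one was accompanied by more MAX. MAX was at 47.996, 46.1 and 47.3 CPM in dKO-8 and at 57.5, 57.5 and 57.4 CPM in dKO-8M, a rise of 0.29 ± 0.05 (adjusted p = 8.51e-06). It was at 45.1, 42.5 and 42.3 CPM in dKO-19 and at 57.3, 55.7 and 52.5 CPM in dKO-19M, a rise of 0.35 ± 0.05 (adjusted p = 1.28e-07), or 0.31 without replicate 1 of dKO-19M. These 2 comparisons share no libraries, and the groups of each did not overlap.

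MYCL fell by 0.89 on the log2 scale in dKO-8M against dKO-8 (SE 0.19, adjusted p = 0.000142), from 3.46, 3.14 and 3.10 CPM to 1.96, 1.52 and 1.66 CPM, a level that overlapped that of dKO-8 under SNX631. In dKO-19M against dKO-19 its difference was -0.09 (95% interval -0.45 to 0.27), or -0.16 without replicate 1 of dKO-19M. MXD4 fell by 0.26 in dKO-19M against dKO-19 (SE 0.05, adjusted p = 6.11e-05), or a log2 difference of -0.27 without replicate 1 of dKO-19M, and MLX rose by 0.18 ± 0.05 in dKO-8M against dKO-8 (adjusted p = 0.00498). The value of MLX was lost without any library but dKO-8 replicate 1 (adjusted p up to 0.0367), and that of MXD4 in a fit of only the libraries compared (adjusted p = 0.0142). In dKO-19M against dKO-19 MLX was at -0.16 and did not pass (adjusted p = 0.0139), but fell by 0.22 without replicate 1 of dKO-19M (adjusted p = 0.000601). MYC did not pass in either comparison (-0.03 and 0.12), although the second passed with library size as the only scaling (0.17). MXD1 was at 0.12 in dKO-8M and 0.11 in dKO-19M, MNT at 0.06 and -0.13, MGA at -0.005 and -0.13, and MXD3 at -0.17 and 0.02, and none of them passed. Without replicate 1 of dKO-19M the last values of MGA and MXD3 became 0.02 and -0.09. Thus 3 of 10 members passed and 1 was called for dKO-8M against dKO-8 (background 21.8% and 7.03%), and 2 passed for dKO-19M against dKO-19 (24.0%), or 3 without replicate 1 of dKO-19M (22.1%). Each line is a separate product of transduction, so the mutation and the line cannot be told apart.

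MYCN, the paralog known from neuroblastoma and from neuroendocrine prostate cancer, was counted chiefly in Rv1-WT. As the filter kept it through those libraries, its levels are given as a description. The 12 Rv1-WT libraries held 22 to 49 counts of MYCN, the 12 Rv1-Luc libraries 2 to 9, and the 24 dKO libraries 0 to 3. In dKO-19M all 6 libraries were at 0 counts, which allows a level of up to 0.111 to 0.160 CPM (3 counts per library, counting error only). Under vehicle in FBS it was at 2.76, 1.54 and 1.88 CPM in Rv1-WT and at 0.324, 0.377 and 0.318 CPM in Rv1-Luc. MYCN overlaps the antisense gene MYCNOS over 3.77% of its exon bases.

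Of the other 9 members, 4 passed between Rv1-Luc and Rv1-WT under vehicle in FBS. MXD3 rose by 0.36 ± 0.06 (adjusted p = 1.56e-06) and MNT by 0.30 ± 0.07 (adjusted p = 0.000135), while MGA fell by 0.29 (SE 0.09, adjusted p = 0.00509) and MAX by 0.17 (SE 0.05, adjusted p = 0.00758). MAX did not pass in 5 of 7 other settings of the analysis, nor without Rv1-WT replicate 3 or Rv1-Luc replicate 2 or 3 (adjusted p up to 0.103). MGA did not pass with library size as the only scaling, nor without Rv1-WT replicate 2 or Rv1-Luc replicate 1 (adjusted p up to 0.0486). The other 5 did not pass, with MYC at 0.12, MYCL at -0.51, MXD1 at -0.05, MXD4 at -0.04 and MLX at 0.08. Of all genes 41.8% passed and 17.8% were called, and none of these 9 members was called. The plasma cell markers IGKC, IGHG1 and JCHAIN summed to 1.23 to 20.5 CPM in Rv1-Luc and to at most 0.109 CPM in the libraries of all other lines; their part in these differences was not tested.

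The genes nearest to each called member over the 16 group means were named by Pearson's r of log2 CPM, as a description of 16 points that share lines and media. For MYC these were RPUSD4 (0.886), TWNK (0.830) and PRRX2 (0.830). For MYCL they were IFRD1 (0.979), PPM1M (0.974) and RHBDD1 (0.973), and for MYCN they were DDX53 (0.991), GASK1A (0.989) and ACTN2 (0.983). The filter kept MYCN through Rv1-WT alone, where it was chiefly counted, so its r values mainly restate that difference between lines.

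Genes that MYC is known to induce, chiefly factors of ribosome production and metabolism, were described from a list of 30, of which 29 were tested. In Rv1-WT in CSS, where SNX631 raised MYC, 20 of 29 rose and none fell (9.79% of all genes rose and 7.81% fell), with a median of 0.26 against 0.00 for all genes. NOP16, a nucleolar protein, rose by 0.40 ± 0.07 and RRP9, a factor of ribosomal RNA processing, by 0.39 ± 0.08; no gene of the list reached 1.5-fold. For CSS against FBS under vehicle in Rv1-WT, where MYC fell, 18 of 29 fell and 3 rose (19.1% and 17.1% of all genes), with a median of -0.23. LDHA, lactate dehydrogenase A, fell by 1.56 on the log2 scale, HSPE1, a mitochondrial chaperonin, by 0.95, and RRP12, a factor of ribosome assembly, rose by 0.69 ± 0.05. These 2 comparisons share 3 libraries. Under SNX631, where CSS raised MYC by 0.33, it raised 7 and lowered 9 of the 29 (14.7% and 16.6% of all genes). The median was -0.07, so the list did not follow MYC there. Among these genes were RRP12 (0.84 ± 0.05), LDHA (down by 1.02) and HSPE1 (down by 0.86). The response to CSS under vehicle differed between Rv1-Luc and Rv1-WT by 1.05 for LDHA, 0.94 for HSPE1 and -0.65 for RRP12.

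In dKO-8, where SNX631 lowered MYC, 1 of the 29 rose and 3 fell (median -0.01), against 3.17% and 4.58% of all genes. In dKO-19, 1 rose and 6 fell (median -0.08), against 5.53% and 7.67%. None passed in dKO-8M (median 0.01), and 1 fell in dKO-19M (median 0.02), or none without vehicle replicate 1. The difference in response between CSS and FBS in Rv1-WT passed for 2 of the 29 (median 0.16, 1.38% of all genes), and that between Rv1-Luc and Rv1-WT in CSS for 6, all lower in Rv1-Luc (median -0.14, 4.15% of all genes). In Rv1-Luc 3 rose and 4 fell under SNX631 in FBS (median 0.02, 7.15% and 6.08% of all genes), and 4 rose and 4 fell in CSS (median 0.07, 7.95% and 7.88%). In Rv1-WT in FBS 4 rose and 2 fell (median 0.09, 4.81% and 3.97%). The kinase-dead lines differed here. In dKO-8M against dKO-8, 7 rose and 2 fell (median 0.05, 9.87% and 11.9% of all genes). For dKO-19M against dKO-19, 2 rose and 8 fell (median -0.07, 10.7% and 13.3%), or 0 and 12 without replicate 1 of dKO-19M. Between Rv1-Luc and Rv1-WT, 13 rose and 3 fell (median 0.13, 18.6% and 23.2%), and EIF4E, the cap-binding factor, fell by 0.79 on the log2 scale and was the only one called.

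**Figure D5:**
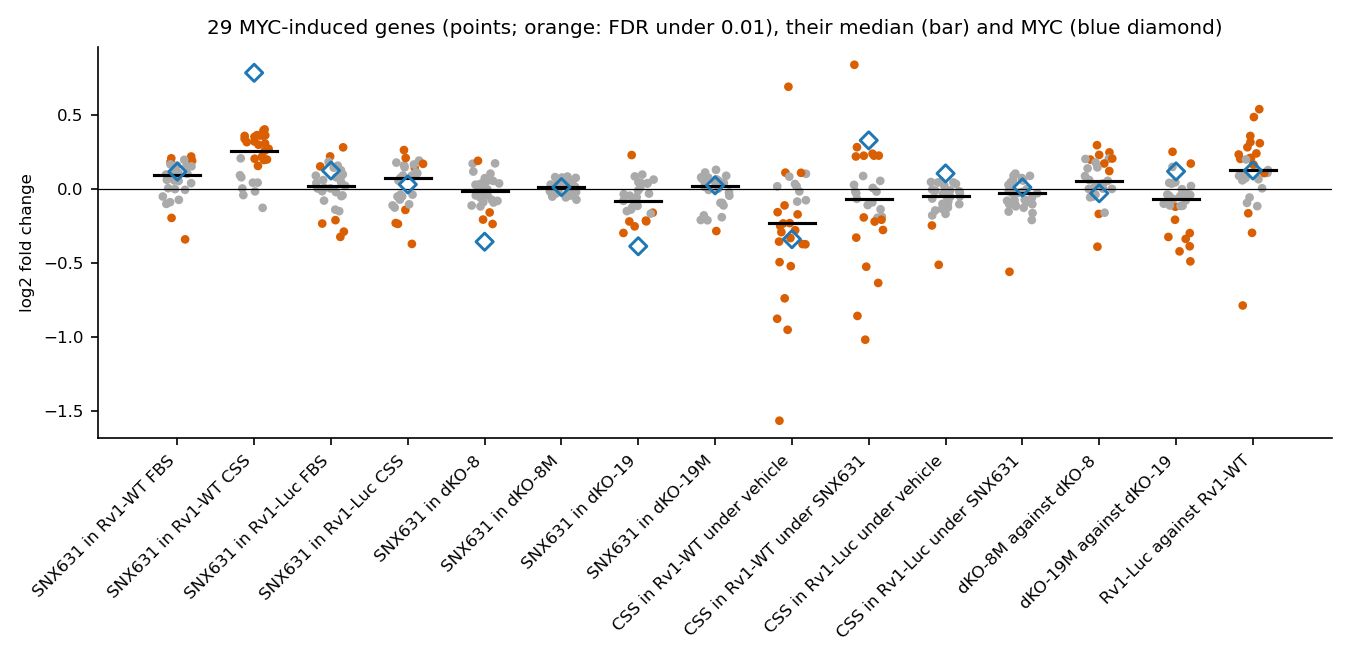
log2 fold change (y axis) of 29 genes that MYC is known to induce in 15 comparisons (x axis), with orange points at an adjusted p under 0.01, a bar at the median and a blue diamond for MYC. The median is highest for SNX631 in Rv1-WT CSS (0.26) and lowest for CSS in Rv1-WT under vehicle (-0.23). MYC itself was at 0.78 and -0.34 in these comparisons. For CSS in Rv1-WT under SNX631, MYC was at 0.33 and the median at -0.07. In dKO-8 and dKO-19 the diamonds lie below the bars.

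The 6 genes that MYC is known to repress did not move as one. In dKO-19, SNX631 lowered 4 and raised 1 (7.67% and 5.53% of all genes). NDRG1, a stress-induced gene, dropped by 1.34 on the log2 scale and CDKN1A, the cell cycle inhibitor p21, by 0.67. CDKN2B, the inhibitor p15, was called as well, at 2.76 against 4.399 CPM. The responses of dKO-19 and dKO-19M did not pass the test for a difference for NDRG1 (-0.80) or CDKN2B (-0.30). In dKO-19M NDRG1 was at -0.54, or -0.57 without vehicle replicate 1, and did not pass. There 1 of the 6 fell (0.690% of all genes), GADD45A by 0.31, or by 0.28 without this replicate. In Rv1-WT in CSS, where SNX631 raised MYC, 3 rose and 1 fell (9.79% and 7.81% of all genes), with a median of 0.16. There CDKN1A fell by 0.59 and NDRG1 rose by 0.66 ± 0.17. For CSS against FBS under vehicle in Rv1-WT, where MYC fell, 4 rose and 1 fell (17.1% and 19.1% of all genes). The median was 0.37, against 0.01 for all genes. In that comparison GADD45A (0.85 ± 0.06) and CDKN1B, the inhibitor p27 (0.72 ± 0.04), rose and NDRG1 fell by 1.37. GADD45A, a stress-induced gene too, rose by 0.66 ± 0.05 under SNX631 in Rv1-Luc in FBS. In Rv1-Luc in CSS it rose by 0.63 ± 0.06 and NDRG1 fell by 1.26 (SE 0.16).

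Genes of this list were also called in other comparisons. In those between 2 groups, 3.25% to 18.6% of all genes rose and 3.73% to 23.2% fell. Under SNX631, CSS raised CDKN1B (0.81 ± 0.04) and GADD45A (0.64 ± 0.06) in Rv1-WT and lowered NDRG1 by 0.70. With CSS in Rv1-Luc, GADD45A fell by 0.81 under vehicle and fell by 0.83 under SNX631, and NDRG1 fell by 0.62 under vehicle and fell by 1.79 under SNX631. For dKO-8M against dKO-8, CDKN2B rose by 0.99 ± 0.14 and NDRG1 fell by 0.75. For dKO-19M against dKO-19, NDRG1 fell by 1.07 and CDKN1A by 0.96, and both were called without replicate 1 of dKO-19M. Between Rv1-Luc and Rv1-WT, 5 of the 6 rose and 1 fell, with a median of 0.41 against -0.02 for all genes. CDKN1A rose by 0.75 ± 0.05 and CDKN2B fell by 0.62. Differences of response were called for CDKN1A in dKO-19 minus dKO-19M (-0.62), for NDRG1 and CDKN2B in dKO-19 minus dKO-8 (-1.04 and -0.90), for NDRG1 in Rv1-Luc CSS minus FBS (-1.17), and for GADD45A and NDRG1 in the response to CSS of Rv1-Luc minus Rv1-WT (-1.66 and 0.75). Of the differences added later, NDRG1 was called for Rv1-Luc minus Rv1-WT in CSS (-1.92) and dKO-19 minus Rv1-WT (-1.33), and GADD45A for dKO-8 minus Rv1-WT (-0.82).

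Of the other network genes and partners, 20 of 20 were tested, and the counts that rose and fell under SNX631 were 1 and 1 for Rv1-WT with FBS, 3 and 3 with CSS, 2 and 2 in Rv1-Luc in both media, 2 and 1 in dKO-8, 0 and 2 in dKO-19 and none in dKO-8M and dKO-19M. Over these settings the share of all genes ran from 0.0650% to 9.79% for a rise and from 0.0850% to 7.88% for a fall, and in Rv1-WT with CSS it was 9.79% and 7.81%. None was called in those settings. MXI1, the remaining MXD family gene (MXD2), was among those that fell in Rv1-Luc in FBS (by 0.19) and in CSS (by 0.33), dKO-8 (by 0.31) and dKO-19 (by 0.42). MLXIPL, which encodes ChREBP, was the single gene of the list that was called in any comparison, higher in Rv1-Luc than in Rv1-WT by 1.62 ± 0.15 (13.6 against 4.39 CPM). In dKO-19M against dKO-19 it rose by 0.56 ± 0.14, or 0.65 without replicate 1 of dKO-19M, which was also over 1.5-fold. The values of MXI1 were known when it was picked from the list.

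TXNIP and ARRDC4, arrestin-domain genes that MondoA and MLX are known to activate, parted under SNX631. TXNIP fell in all 6 settings with an active kinase, by 0.94 in Rv1-WT in FBS (405 to 211 CPM), by 1.48 in Rv1-WT in CSS (1108 to 397 CPM), by 0.58 and 0.68 in Rv1-Luc in FBS and CSS, by 0.60 in dKO-8 and by 0.68 in dKO-19. In dKO-8M and dKO-19M it did not pass (0.18 and -0.04). The response of TXNIP differed from that of the kinase-dead line by -0.78 ± 0.10 in dKO-8 and by -0.64 ± 0.10 in dKO-19, or -0.65 without vehicle replicate 1 of dKO-19M. ARRDC4 rose in Rv1-WT in FBS (0.29) and in Rv1-Luc in FBS (0.35) and CSS (0.33), fell in Rv1-WT in CSS by 0.29, and did not pass in the 4 dKO lines. CSS raised both in Rv1-WT under vehicle, TXNIP by 1.45 ± 0.07 and ARRDC4 by 1.05 ± 0.07, and neither passed in Rv1-Luc (0.03 and -0.25); the response differed between the lines by -1.42 and -1.296. Under SNX631, CSS raised TXNIP in Rv1-WT by 0.91 ± 0.07. TXNIP fell by 1.17 in dKO-8M against dKO-8, and by 0.98 in Rv1-Luc against Rv1-WT, where ARRDC4 fell by 0.88. In dKO-19M against dKO-19 TXNIP did not pass (0.13), and ARRDC4 rose by 0.42, or 0.45 without replicate 1 of dKO-19M. The SNX631 responses of Rv1-Luc and Rv1-WT in CSS differed by 0.80 for TXNIP and 0.62 for ARRDC4. Of these comparisons with all libraries in the fit, MLX itself passed for SNX631 with dKO-8 and for the mutant line dKO-8M against dKO-8, and for no other.

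Among 10 genes that act on the stability of MYC protein, HUWE1, a ubiquitin ligase, was the single one called in the 15 comparisons of groups, higher in CSS than in FBS in Rv1-WT under vehicle by 0.87 ± 0.09 (351 against 192 CPM). Under SNX631 between 0 and 2 of the 10 rose and between 0 and 2 fell in each of the 8 settings, at 2 and 2 in Rv1-WT in CSS (9.79% and 7.81% of all genes) and in dKO-8 (3.17% and 4.58%). The response to CSS under vehicle was called as different between Rv1-Luc and Rv1-WT for HUWE1 (-0.82) and AURKA, a kinase that binds MYC proteins (-0.62). PVT1, the long RNA encoded beside MYC, was at 14.2 CPM under SNX631 and 11.6 CPM under vehicle in Rv1-WT in CSS (0.29, adjusted p = 0.0117) and did not pass there. It passed in Rv1-Luc in CSS, at 22.0 against 18.1 CPM (0.29 ± 0.07, adjusted p = 0.00282), where MYC was at 0.03. It was higher in Rv1-Luc than in Rv1-WT by 0.62 ± 0.09 (adjusted p = 2.38e-08), where MYC was at 0.12 and did not pass.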

How the data were processed

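Directional RNA-Seq libraries were made from total RNA. The deposited table holds 1 column per library with the authors' expected counts for each gene: 81.6% of nonzero values were whole, and how the others became fractions is not stated. The submitters' processing notes name cutadapt 2.8, STAR 2.7.2b, Subread 2.0.3 with featureCounts and GRCh38.p13; the counting options and the annotation release are not given in the sources used here. The 2 transgene entries were left out.

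Computed here: counts were rounded and filtered with filterByExpr (minimum count 10, minimum total 15), which left 20009 genes. TMM factors were 0.911 to 1.07. All 48 libraries entered 1 fit with a mean per group and 32 residual degrees of freedom (edgeR 4.0.16, limma 3.58.1, R 4.3.3; quasi-likelihood F-test, robust, two-sided). p-values were adjusted by Benjamini-Hochberg over all genes within each comparison, and adjusted p in the text is from this test. The limits (0.01 and 1.5-fold) are the study's. DESeq2 1.42.0 was an alternative. The fit was tested on simulated data. Groups came from the sample labels. CPM is TMM-scaled. The smallest chi-square per degree of freedom between replicates was 1.27, so no library was a copy. Floors cover counting error only.

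The rule named all 10 members in every comparison, and the called list genes with the 2 largest changes in each direction; members that did not pass for a difference of response are mostly covered by counts, MYCN at 3 counts or fewer by counts alone, and other list genes are examples. The members and gene lists were chosen with earlier results of these data known. Differences of response came from contrasts in the same fit: 7 planned and 3 added after the values were seen. Lists without replicate 1 of dKO-19M were added then too. Some items are not reported here.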

Additional observations from a re-analysis of the deposited data

Results flagged for a closer look

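The following 7 differences in response passed the test of the difference itself (edgeR, adjusted over all genes). For MYC, the response to SNX631 in Rv1-WT was higher in CSS than in FBS by 0.67 on the log2 scale. It was lower in dKO-8 than in dKO-8M (-0.37) and lower in dKO-19 than in dKO-19M (-0.41). The response of MYC to CSS under vehicle was higher in Rv1-Luc than in Rv1-WT (0.44), and that of MYCL was lower (-1.34). For MXD4, the response to SNX631 in dKO-19 was lower than that in dKO-19M (-0.50) and than that in dKO-8 (-0.33). The groups of 3 libraries are too small for a test of outlying libraries, and no cause of these differences was tested.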

How the results depend on the processing

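None of the 48 values that passed, MYCN in Rv1-Luc against Rv1-WT among them, changed direction under the alternatives. Values that did not pass were followed without 2 libraries and, in comparisons of 2 groups, with library size only. Some near 0 changed sign. With library size only, MYC passed in dKO-19M against dKO-19 (0.17, adjusted p = 0.00321) and in Rv1-Luc against Rv1-WT (0.16, adjusted p = 0.0033). MAX then passed under SNX631 in dKO-19 (0.19) and in Rv1-Luc in CSS (0.16). MXD4 then passed for CSS in Rv1-WT under vehicle (0.20) and in Rv1-Luc under SNX631 (0.21). Without a limit on the fold change, the counts of called members went from 3 to 18 for SNX631 against vehicle, from 2 to 7 for CSS against FBS, from 1 to 5 for the kinase-dead against the active lines, from 1 to 5 for Rv1-Luc against Rv1-WT, and from 2 to 7 for the planned differences of response. Tested against a change of 1.5-fold, they were 1 for SNX631, 0 for the kinase-dead lines and 0 for the differences of response. Leaving out a library gave 1 to 2 called members for Rv1-Luc against Rv1-WT, 2 of them without Rv1-WT FBS vehicle replicate 2. MYCN is among the called members of this comparison and among the 48 values. The filter on low counts had fixed its difference between lines, so its staying there is no support. Of 48 values that passed, 47 passed with DESeq2, 47 with RLE scaling, 45 with library size only, 46 with no filter on low counts, 48 with unrounded counts and 45 in fits of only the libraries compared. In fits that left out a library, 330 of 366 values passed. MXD3 (SNX631 in Rv1-Luc), MAX (Rv1-Luc in FBS, Rv1-WT under SNX631, and Rv1-Luc against Rv1-WT), MLX in dKO-8M and the MYCL response of dKO-19 against Rv1-WT were lost most often. With a replicate block all 48 passed; in 0 of 15 comparisons did all 3 same-numbered pairs correlate above 0.1, so the numbers are not taken to pair the libraries. Depth limits MYCL (21 to 176 counts per library) and MYCN (at most 49).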
